A study of Mus musculus with 2 samples.

Results

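Of the 55536 genes in the deposited gene tables, 9 genes that make, break down or regulate polyamines were examined in mouse gastrocnemius, a calf muscle made mainly of fast fibres. They were taken by symbol, and each symbol matched 1 gene identifier. Odc1, Amd1, Srm and Sms encode the synthesis enzymes, Smox and Sat1 the enzymes of turnover, Oaz1 and Oaz2 the antizymes, and Azin1 the antizyme inhibitor. The series holds total RNA-seq of 2 libraries from adult male mice aged 8 to 10 months, of the strain given as 5xFAD/CAST and described as a cross of 5xFAD with Cast. As background, 5xFAD mice carry mutant human transgenes under a Thy1 promoter made for expression in neurons, and CAST mice are inbred from Mus musculus castaneus. Both libraries carry this genotype and no treatment is named, so the series has 1 group, no control group and no comparison of genotypes. The libraries are labelled biological replicates 1 and 2, with biosample entries of their own and 1 donor entry in common. The labels do not name the animals, so the spread between them may be technical in part.

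Polyamines are small, positively charged molecules that bind nucleic acids and ribosomes, and cells need them to grow. Ornithine decarboxylase (Odc1) makes putrescine. S-adenosylmethionine decarboxylase (Amd1) makes the aminopropyl donor with which spermidine synthase (Srm) and spermine synthase (Sms) extend putrescine to spermidine and then to spermine. Spermine oxidase (Smox) turns spermine back into spermidine, and the acetyltransferase Sat1 marks both for export or oxidation. Antizymes bind Odc1 and send it to the proteasome, and their protein is made in full only when ribosomes shift reading frame, which polyamines promote. The antizyme inhibitor Azin1 resembles Odc1, lacks its activity and binds antizyme in its place.

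The libraries were of like depth, with 35163970 expected counts over all genes in replicate 1 and 35412240 in replicate 2. All 6 muscle fibre markers were abundant, at 6652 to 18634 TPM, a level of transcripts per length that is scaled to the same total in each library. No gene of the 8 marker lists was at 0. Summed endothelial markers were at 52.7 TPM in replicate 1 and 35.3 TPM in replicate 2, and summed adipocyte markers at 215 and 155 TPM. Summed smooth muscle and pericyte markers were at 127 and 94.4 TPM, and summed fibroblast markers at 241 and 246 TPM. By TMM-scaled counts, described below, all 6 endothelial, 5 of 6 adipocyte and 4 of 5 smooth muscle and pericyte markers were lower in replicate 2. All 6 muscle fibre markers and 4 of 5 fibroblast markers were higher by those counts. In TPM all 6 muscle fibre markers were lower in replicate 2, with sums of 85391 TPM in replicate 1 and 82636 TPM in replicate 2. The median log2 ratio over the 9741 genes compared below was 0.0016 by TMM-scaled counts and -0.13 in TPM. No share of all genes higher or lower at any size is given beside these marker counts.

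The antizyme genes are shown by sequence first, because their annotated transcripts differ at a site of a few bases, and the levels of those transcripts differ between the deposited tables. At the known frameshift site the ribosome reads TCC, passes over the T that follows, and goes on in the new frame; without the shift it meets the stop codon TGA that this T begins. The GENCODE M21 annotation of mm10 writes this site in several ways. Each line gives the bases that 1 transcript holds within a window of 30 genomic bases, which is chr10:80828279-80828308 on the plus strand for Oaz1 and chr9:65686256-65686285 on the plus strand for Oaz2. Capitals mark what is kept of the 4 bases TCCT.
Oaz1-205: gcctcggtggtgcTCCTgatgtccctcacc
Oaz1-207: gcctcggtggtgcTCCgatgtccctcacc
Oaz1-201: gcctcggtggtgcgatgtccctcacc
Oaz1-ps-201: gcctcggtggtgcTCCTgatgtccctcacc
Oaz2-207: gcctctgtggtgcTCCTgatgcccctcacc
Oaz2-206: gcctctgtggtgcTCCgatgcccctcacc
Oaz2-201: gcctctgtggtgcgatgcccctcacc

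Oaz1-205 and Oaz2-207 hold the site unbroken, as the genome does. Oaz1-207 and Oaz2-206 leave out 1 base, so the shifted frame reads on as a continuous coding sequence, and Oaz1-201 and Oaz2-201 leave out 4. In the 6-exon transcripts Oaz1-201, Oaz1-207, Oaz2-201 and Oaz2-206 the gap is written as a border between exons 2 and 3, within coding sequence. Oaz1-205 carries the site inside coding exon 2, and Oaz2-207, a processed transcript, inside noncoding exon 3. The pseudogene Oaz1-ps has the same 30 bases as Oaz1-205, at chr17:17345923-17345952 on the minus strand.

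Retrocopies of Amd1 and Oaz1 differ from their parents at so few bases that 2 further pairs are shown. The windows of 41 bases centre on a position where parent and copy differ, with that base in capitals. Amd1-201 is read from coding exon 7 at chr10:40290166-40290206 on the minus strand, and Amd2-201 from its only exon at chr10:35710744-35710784 on the minus strand. The Oaz1-201 window lies in coding exon 1 at chr10:80826864-80826904 on the plus strand, and that of Oaz1-ps-201 at chr17:17345996-17346036 on the minus strand.
Amd1-201: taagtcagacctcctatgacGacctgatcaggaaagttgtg
Amd2-201: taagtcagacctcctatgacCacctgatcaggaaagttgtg
Oaz1-201: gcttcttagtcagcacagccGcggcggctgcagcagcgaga
Oaz1-ps-201: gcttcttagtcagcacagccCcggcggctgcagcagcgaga

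All 9 genes were detected at 1 TPM or more in both libraries, and 7 at 10 TPM or more. Of all 22015 nuclear protein-coding genes, 45.7% reached the first level and 19.0% the second. The summed level of the 9 genes was 1076 ± 33.2 TPM (SD, n = 2), from 1099.6 TPM in replicate 1 and 1052.6 TPM in replicate 2. Their levels spanned a wide range: in the RSEM gene table Oaz1 had the highest mean, followed by Amd1, Smox, Oaz2, Odc1, Sms, Azin1, Sat1 and Srm. No neighbours in this order overlapped between libraries. For Sat1 over Srm the difference of the means, 1.47 TPM, was about as large as their SDs added, 1.48 TPM, so those genes do not differ beyond their spread in this table, though the kallisto-layout table gave 1.78 TPM against added SDs of 1.29 TPM; for Oaz1 over Amd1 the difference of 40.0 TPM was close to the added SDs of 37.6 TPM.

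**Figure D1:**
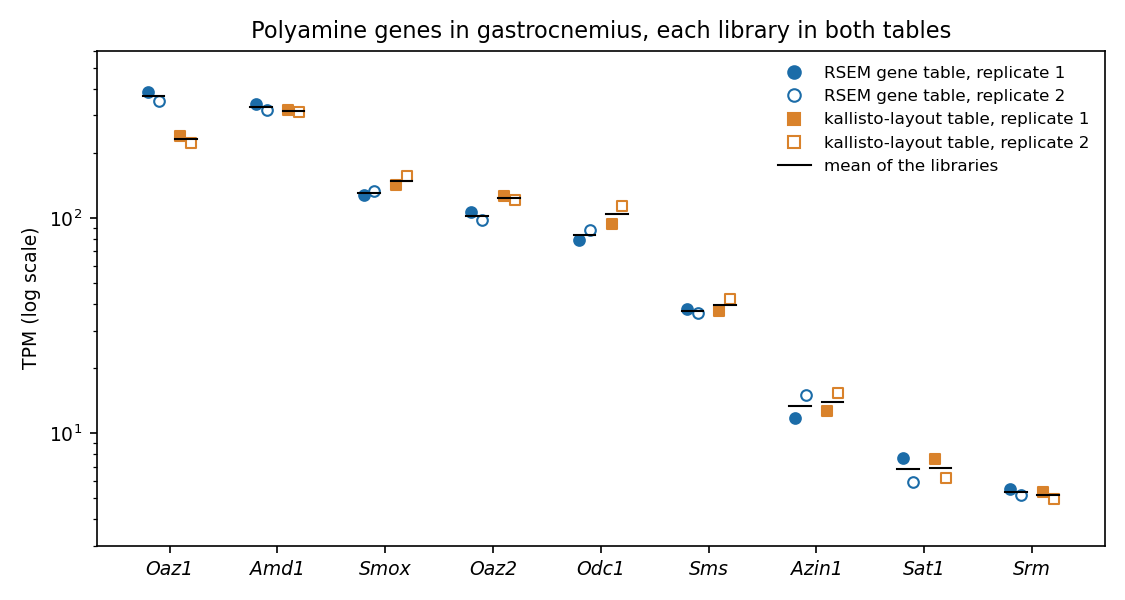
Level of each of the 9 genes in TPM (log axis) in both libraries, from the RSEM gene table (circles) and the kallisto-layout table (squares), with filled symbols for replicate 1, open symbols for replicate 2 and bars at the mean. Oaz1 and Amd1 lie at 224 TPM or more in every case and trade places between the tables, while Sat1 and Srm lie below 10 TPM.

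The entry enzyme of the pathway, Odc1 (ENSMUSG00000011179.8, chr12:17544794-17551505, plus strand), was at 79.1 TPM in replicate 1 and 88.1 TPM in replicate 2, a mean of 83.6 ± 6.36 TPM (SD, n = 2). It ranked 633 of the nuclear protein-coding genes by mean TPM. The table in the layout that kallisto writes, a second quantification of the same reads, gave Odc1 94.1 and 114 TPM. Its level was thus higher in replicate 2 in both tables and 1.25 times as high on average in the second table.

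Most Odc1 RNA was assigned to the coding transcript Odc1-201, but how much depended on the table. Odc1-201 held 88.0% and 82.0% of Odc1 TPM in the RSEM transcript table, and 65.3% and 56.9% in the kallisto-layout table. The difference lay mainly with Odc1-204, a 561-base transcript annotated as a retained intron, which held 3.1% and 4.0% in RSEM against 26.4% and 30.7%. Counted in reads and not per length, Odc1-204 took 0.7% and 0.9% of Odc1 counts in RSEM and 5.86% and 7.11% in the kallisto-layout table. Among pseudogenes that resemble Odc1, Gm7993, named after its values were seen, held the most reads, with 301 and 332 counts at 95.7% identity over 1388 bases. The 2 Odc1 transcripts annotated for nonsense-mediated decay together held 6.3% and 11.7% of RSEM TPM.

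Amd1 (ENSMUSG00000075232.5, chr10:40287458-40302186, minus strand), which supplies the aminopropyl donor, was at 338 TPM in replicate 1 and 319 TPM in replicate 2, a mean of 328 ± 13.4 TPM (SD, n = 2). With 26592 and 26461 expected counts it had the most reads of the 9 genes, and it ranked 142 of the protein-coding genes. The transcript Amd1-201 held 99.0% and 98.0% of its RSEM TPM. Its share of the summed level was 30.5 ± 0.301% (SD, n = 2). Per length, Amd1 was 4.27 and 3.62 times the level of Odc1 in replicates 1 and 2.

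The Amd1 level rests on how reads were divided among near-identical genes. Amd2, an intronless coding gene elsewhere on chromosome 10, matched Amd1-201 at 99.7% of 3198 aligned bases, with 10 mismatches of which 1 lay in coding sequence, the one shown above. The processed pseudogene Amd-ps3 matched it at all but 1 of 1005 bases. Of all windows of 100 bases in Amd2, 72.9% occur letter for letter in an Amd1 transcript, and for Amd-ps3 89.0% do, so that a read lying in one of them could belong to either gene. Both copies were nonetheless listed at high levels.

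Amd2 was at 147 TPM in replicate 1 and 135 TPM in replicate 2, and Amd-ps3 at 167 and 152 TPM. Together with 4 further pseudogenes that held 0 to 4.44 expected counts each, the 7 Amd genes summed to 629 ± 32.3 TPM (SD, n = 2). Amd1 itself held 52.2 ± 0.559% of that sum (SD, n = 2) and 63.3 ± 0.352% of the reads. The kallisto-layout table gave Amd1 nearly the same part, 53.1 ± 0.235% of TPM. The posterior SD that RSEM reports for the Amd1 count was 0.625% and 0.579% of the count in replicates 1 and 2, and that of Amd-ps3 was 2.13% and 2.16%. With all Amd genes counted as Amd1, its RSEM level was 8.24 and 6.88 times that of Odc1 in replicates 1 and 2, against the 4.27 and 3.62 times given above. In the kallisto-layout table it was 6.39 and 5.13 times, against 3.38 and 2.73 times without the copies. With Gm7993 also added to Odc1, a setting chosen after seeing the data, the ratio was 7.38 and 6.21 in RSEM. It was 5.85 and 4.74 in the kallisto-layout table. Reads of this cross with Cast were set against the mm10 reference, and the effect of strain differences on the division was not tested.

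**Figure D2:**
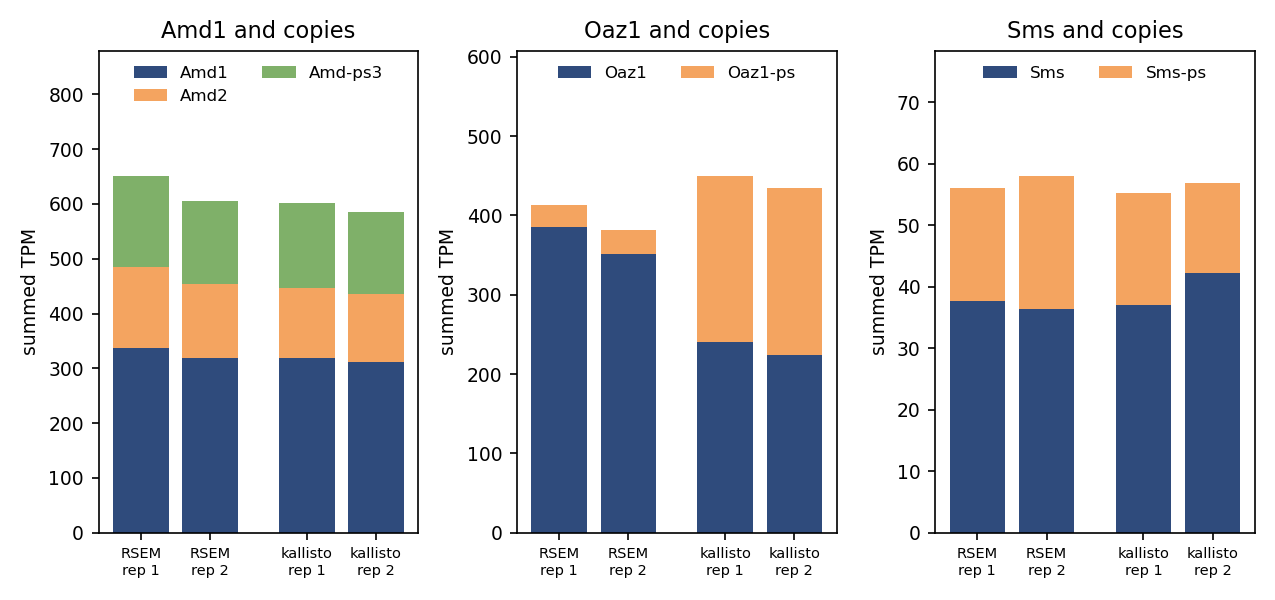
Summed TPM (bars from 0) of Amd1, Oaz1 and Sms with their near-identical copies stacked on top, for replicates 1 and 2 in the RSEM gene table and in the kallisto-layout table. The Amd split is alike in both tables, whereas Oaz1-ps is a thin band in RSEM (27.7 and 30.7 TPM) and a block of 210 TPM in each library of the kallisto-layout table.

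Srm (ENSMUSG00000006442.10, chr4:148591503-148594993, plus strand), the spermidine synthase, was the lowest of the 9 genes, at 5.53 TPM in replicate 1 and 5.14 TPM in replicate 2, a mean of 5.34 ± 0.276 TPM (SD, n = 2). It rested on 175 and 171 counts. The kallisto-layout table gave 5.35 and 4.93 TPM. Its single coding transcript Srm-201 held 100% and 97.5% of its RSEM TPM. The protein-coding genes next to Srm in the order of mean TPM were Zfp874b and Zcchc8, both at 5.34 TPM when rounded.

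Sms (ENSMUSG00000071708.11, chrX:157443855-157492287, minus strand), the spermine synthase, was at 37.7 TPM in replicate 1 and 36.4 TPM in replicate 2, a mean of 37.1 ± 0.940 TPM (SD, n = 2). It was 6.82 and 7.08 times as high as Srm in the 2 libraries, and 10.1 and 11.3 times with its pseudogene Sms-ps added. Sms-ps, which lies elsewhere on the X chromosome, is identical to Sms-201 over its whole 1101 bases. It was listed at 18.3 and 21.6 TPM, with a posterior SD of 8.15% and 6.48% of its count.

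Since no base of Sms-ps differs from its parent, reads inside it carry no letter that separates the genes. Sms held 65.0 ± 3.27% of their summed TPM (SD, n = 2) and 87.0 ± 1.59% of their reads. The sum itself was nearly the same in both tables, at 57.0 ± 1.42 TPM in RSEM and 56.1 ± 1.2 TPM in the kallisto-layout table (SD, n = 2). Within Sms, where Sms-201 held 98.7% and 99.2% of RSEM TPM, the tables differed in Sms-204, annotated for nonsense-mediated decay, which was listed at 0 in RSEM and held 10.2% and 21.3% of Sms TPM in the kallisto-layout table.

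Smox (ENSMUSG00000027333.18, chr2:131491496-131525922, plus strand), which oxidises spermine, was the third highest of the 9 genes, at 128 TPM in replicate 1 and 134 TPM in replicate 2. Its mean was 131 ± 3.78 TPM (SD, n = 2), and it ranked 404 of the protein-coding genes. The second table gave 142 and 156 TPM. The posterior SD of its gene count was 0, and no other gene of the annotation shared a stretch of at least 100 bases with it at 95% identity or more. Smox has 17 annotated transcripts, of which Smox-201 held 55.0% and 55.8% of RSEM TPM. The division among transcripts was less certain, with RSEM posterior SDs of 199 and 206 on the 3920 and 4394 counts of Smox-201. The 414-base coding transcript Smox-211 held 1.9% and 0.5% there and 15.9% and 14.5% in the kallisto-layout table.

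Sat1 (ENSMUSG00000025283.15, chrX:155213132-155216449, minus strand), which acetylates spermidine and spermine, was far lower, at 7.65 TPM in replicate 1 and 5.95 TPM in replicate 2. Its mean was 6.80 ± 1.2 TPM (SD, n = 2), from 212 and 179 counts. Smox was therefore 16.8 and 22.5 times as high as Sat1 per length. Paox, the oxidase that acts on the acetylated products, was at 1.67 TPM on average.

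Sat1 is known for an exon with an early stop whose inclusion falls when polyamines are high, and its transcript Sat1-207 carries that exon. The exon has 110 bases and lies at chrX:155215121-155215230 on the minus strand, as exon 4 of 7. The lines give 30 bases of each transcript from the same start, 16 of them before the exon border, and capitals mark the stop codon reached 14 bases into the added exon.
Sat1-207: cactggacccctgaaggttacagtctcTAG
Sat1-201: cactggacccctgaaggacatagcattgtt

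The stop-containing transcript was a sizeable part of a small total. Sat1-201, the full coding transcript, held 67.1% of Sat1 TPM in replicate 1 and 50.8% in replicate 2. Sat1-207, annotated for nonsense-mediated decay, held 14.9% and 22.3%. The 4 retained-intron transcripts, among them Sat1-205 at 11.6% and 15.1%, together held 18.0% and 26.8%, so the coding share was lower and both other shares higher in replicate 2. The kallisto-layout table showed the same order, with 66.1% and 49.3% for Sat1-201 and 14.0% and 25.7% for Sat1-207. These shares rest on the 212 and 179 counts of the whole gene, and the direction is that of 1 library against 1. In RSEM, Sat1-207 had 34.05 and 42.31 counts with posterior SDs of 12.32 and 10.12, so its counts did not differ beyond that error. Sat1-201 had 139 and 87.3 counts with posterior SDs of 17.4 and 14.4.

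Oaz1 (ENSMUSG00000035242.15, chr10:80826656-80829290, plus strand), the broadly expressed antizyme, was the highest of the 9 genes in the RSEM gene table. It was at 385 TPM in replicate 1 and 351 TPM in replicate 2, a mean of 368 ± 24.2 TPM (SD, n = 2), and ranked 118 of the protein-coding genes. Its neighbours in that order were the calcium channel gene Cacna1s at 368 ± 9.82 TPM and the cytochrome oxidase subunit gene Cox7a1 at 367 ± 29.9 TPM (SD, n = 2). The kallisto-layout table gave Oaz1 only 240 and 224 TPM, 0.631 times the RSEM mean. There Amd1, at 315 ± 4.32 TPM (SD, n = 2), was the highest.

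Its pseudogene Oaz1-ps differed between the tables in the opposite direction. It was at 27.7 and 30.7 TPM in RSEM and at 210 TPM in both libraries of the kallisto-layout table, 7.19 times as high. Oaz1-ps differs from Oaz1-201 by 1 mismatch in 681 aligned bases, the one shown above, apart from the 4-base gap at the frameshift site. The RSEM posterior SD of its count was 9.35% and 9.50%. Parent and copy together came to 397 ± 22.1 TPM in RSEM and 442 ± 10.8 TPM in the kallisto-layout table (SD, n = 2).

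The tables also differed in which form of the frameshift site held the Oaz1 level. Oaz1 transcripts that hold the site unbroken, almost wholly the 538-base Oaz1-205, held 49.2% and 46.3% of Oaz1 TPM in RSEM. In the kallisto-layout table they held 0.25% and 0.36%. The unbroken Oaz1 transcripts were then added to Oaz1-ps, which has the same unbroken site. Per length the tables came close, at 217 and 193 TPM in RSEM against 210 and 211 TPM in the kallisto-layout table. In counts they stayed further apart, at 2570 and 2466 in RSEM against 3136 and 3153 in the kallisto-layout table.

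The other Oaz1 transcripts also moved between tables. Oaz1-201, with 4 bases left out, held 32.6% and 39.7% in RSEM and 45.3% and 44.5% in the kallisto-layout table. Oaz1-204, a 520-base coding transcript that lacks the site, went from 4.6% and 3.6% to 52.0% and 53.0%. Oaz1-207, with 1 base left out, held 13.2% and 9.7% in RSEM and 1.9% and 1.7% in the other table. By TPM the leading form of Oaz1 was thus the unbroken one in RSEM and the one without the site in the other table. Counted in reads and not per length, Oaz1-201 led in both tables. It took 46.4% and 54.8% of Oaz1 counts in RSEM, where Oaz1-205 took 31.5% and 28.6%. In the kallisto-layout table Oaz1-201 took 68.3% and 67.9%, against 27.3% and 27.7% for Oaz1-204.

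**Figure D3:**
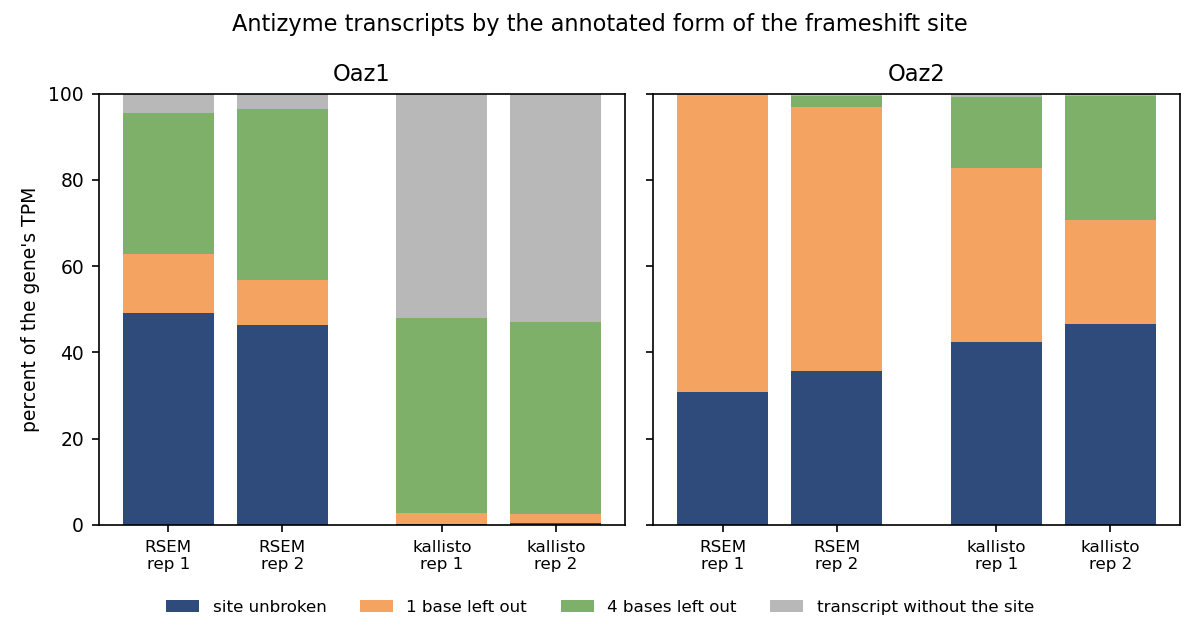
Percent of the TPM of Oaz1 (left) and Oaz2 (right) held by transcripts that keep the frameshift site unbroken, leave out 1 base, leave out 4 bases or lack the site, in each library of the RSEM and kallisto-layout tables. For Oaz1 the unbroken form holds 49.2% and 46.3% in RSEM and is almost absent from the kallisto-layout bars, where transcripts without the site take 52.0% and 53.0%.

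Oaz2 (ENSMUSG00000040652.16, chr9:65668001-65690300, plus strand), the second antizyme, was at 106 TPM in replicate 1 and 98.3 TPM in replicate 2, a mean of 102 ± 5.65 TPM (SD, n = 2). The kallisto-layout table gave 126 and 121 TPM. Oaz1 was 3.63 and 3.57 times as high as Oaz2 in RSEM and 1.90 and 1.85 times as high in the other table. The pseudogene Oaz2-ps was at 1.24 and 0.26 TPM in RSEM and listed at 0 in the kallisto-layout table, so almost all reads of this pair stayed with the parent.

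For Oaz2 the form with 1 base left out led in RSEM. Oaz2-206 held 68.5% and 61.1% of Oaz2 TPM there, against 40.5% and 24.0% in the kallisto-layout table. The unbroken form, mostly the 393-base Oaz2-207, held 30.9% and 35.7% of RSEM TPM and 42.3% and 46.7% of kallisto-layout TPM. Oaz2-207 is short, and it took 5.3% and 7.0% of Oaz2 reads in RSEM. Oaz2-201, with 4 bases left out, was at 0% and 2.5% in RSEM and at 16.4% and 28.9% in the kallisto-layout table. The RSEM posterior SD of the Oaz2-201 count was 479 and 391 counts, on 0.14 and 117 counts, so RSEM hardly separated it from Oaz2-206.

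Azin1 (ENSMUSG00000037458.15, chr15:38487427-38519266, minus strand), which frees Odc1 from antizyme, was at 11.8 TPM in replicate 1 and 15.1 TPM in replicate 2, a mean of 13.4 ± 2.31 TPM (SD, n = 2). The posterior SD of its gene count was 0 in both libraries. The 2 antizymes together were 41.7 and 29.8 times as high as Azin1 per length, and Odc1 was 6.71 and 5.85 times as high. The transcript Azin1-203 held 46.3% and 32.1% of Azin1 TPM in RSEM, and the short coding transcript Azin1-207 held 22.3% and 32.1%. The longer coding transcript Azin1-201 held 16.7% and 18.9%, and the processed transcript Azin1-208 12.1% and 11.7%. In the kallisto-layout table Azin1-203 held 41.2% and 31.2%, and Azin1-207 29.3% and 42.4%. Azin1-201 held 10.4% and 14.8% there, and Azin1-208 9.9% and 1.1%. Counted in reads, Azin1-203 led in both tables, with 64.1% and 51.5% in RSEM and 68.1% and 55.6% in the kallisto-layout table. Azin2, the related inhibitor, was at 1.87 TPM on average, and Oaz3, the antizyme known from testis, had 0 counts in both libraries of the RSEM gene table and 1.09 and 3 estimated counts in the kallisto-layout table. A count of 0 allows up to 3 counts in each library.

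Set against the enzyme they bind, the antizymes were abundant at the RNA level. Summed Oaz1 and Oaz2 TPM was 6.21 times Odc1 TPM in replicate 1 and 5.10 times in replicate 2, a mean of 5.66 ± 0.787 (SD, n = 2). In the kallisto-layout table the ratio was 3.89 and 3.03. With the Amd, Oaz and Sms copies added to their parents, a setting chosen after seeing the data, it was 6.02 ± 0.798 in RSEM and 5.49 ± 0.887 in the kallisto-layout table (SD, n = 2). With Gm7993 also added to Odc1, likewise chosen after seeing the data, it was 5.41 ± 0.69 and 5.05 ± 0.784 (SD, n = 2). The gap between the tables was smaller in both settings, in which Oaz1 and Oaz1-ps were counted as one.

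The ratio between the libraries was then described for each gene as replicate 2 over replicate 1, from expected counts scaled by TMM, a factor that centres most genes. With 1 library on each side there is no test, and the intervals are exact binomial 95% intervals that cover counting error only. The mean count of each of the 9 genes was 100 or more. Odc1 had 4048 and 4727 counts, a log2 ratio of 0.28 (0.21 to 0.34). Azin1 had 896 and 1047 counts, a log2 ratio of 0.28 (0.15 to 0.41). These were the genes that reached 1.2-fold, both higher in replicate 2 at 1.21-fold.

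Ratios of this size also occurred among other genes. The 2 of 9 genes past 1.2-fold stand against 11.8% of the 9741 genes whose mean count reached 100. For genes 1.2-fold higher the shares were 2 of 9 against 5.09%, and for genes 1.2-fold lower 0 of 9 against 6.72%. None of the 9 reached 1.5-fold, which 1.22% of all genes did. The median log2 ratio was 0.05 over the 9 genes and 0.0016 over all 9741.

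Smox, with 6127 and 6880 counts, lay just inside 1.2-fold with a log2 ratio of 0.22 (0.17 to 0.27). Sms, Oaz1, Amd1 and Srm had log2 ratios between 0.02 and 0.09. Sat1 was lower in replicate 2, with a log2 ratio of -0.19 and a wide interval of -0.49 to 0.10, and Oaz2 had -0.06 (-0.13 to 0.01). Marker lists moved with the same contrast. Their median log2 ratios were -0.42 for endothelium, -0.38 for adipocytes, -0.32 for Schwann cells and -0.22 for smooth muscle and pericytes. The medians were -0.11 for macrophages and leukocytes, -0.05 for satellite cells, 0.10 for muscle fibres and 0.19 for fibroblasts. The part of these cell types in the ratios of the 9 genes was not tested. In bulk tissue, fewer cells of a type and less RNA per cell cannot be told apart.

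Scaling decided which genes lay past 1.2-fold. With library totals no member reached it, Odc1 and Azin1 being at log2 ratios of 0.21 each. With spike-in totals Smox joined them at 0.31, against 0.37 for Odc1 and 0.37 for Azin1. Each of these settings moves all genes by the same amount. The share of all genes past 1.2-fold, taken for TMM only, can therefore differ there. With deposited TPM the median over all 9741 genes was itself -0.13, and Odc1 at 0.16, Azin1 at 0.35 and Sat1 at -0.36 are to be read against that shift. Odc1, Azin1 and Smox were higher and Sat1 lower in replicate 2 under all 9 settings, while Amd1, Srm, Sms, Oaz1 and Oaz2 each changed sign in at least 1.

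**Figure D4:**
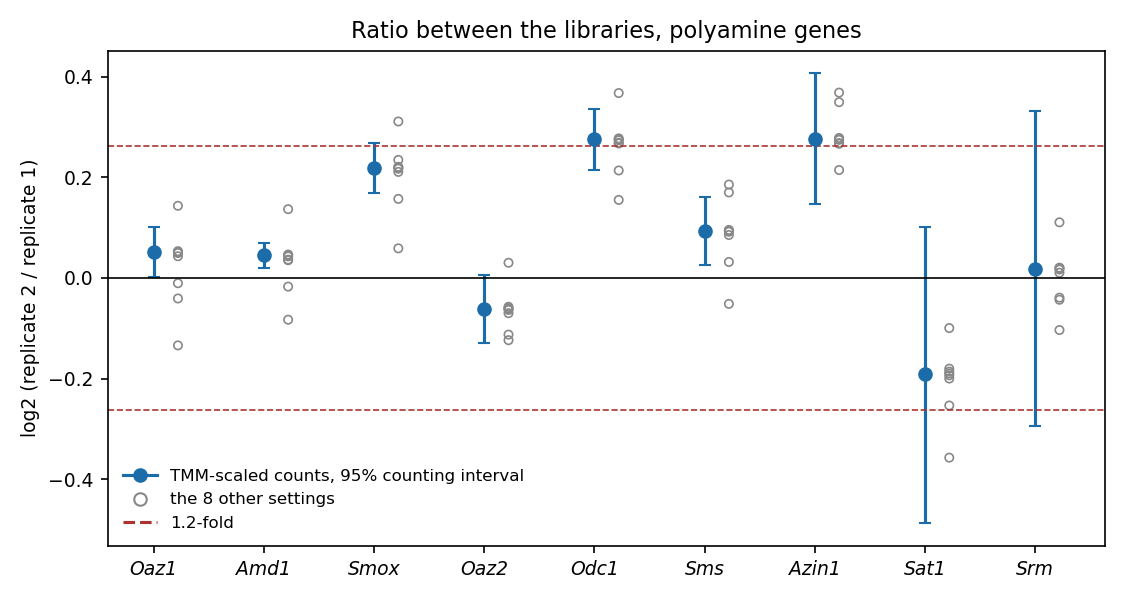
Log2 ratio of replicate 2 over replicate 1 for each of the 9 genes from TMM-scaled expected counts, with exact binomial 95% intervals for counting error (blue), the 8 other settings (grey circles) and dashed lines at 1.2-fold. Odc1 and Azin1 lie just above the upper line at 0.28 each, Sat1 lies lowest at -0.19, and with library totals both Odc1 and Azin1 fall to 0.21, below the line.

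The wider pathway was described through 43 other genes in 6 lists. Of these, 28 were at 1 TPM or more in both libraries, and 24 had a mean count of at least 100. Among all nuclear protein-coding genes 45.7% reached 1 TPM in both, the share to set beside the count of each list below. Past 1.2-fold were 2 of the 24, both higher in replicate 2, against the 11.8% of all genes given above. The median log2 ratio of the 24 was 0.0016.

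Among the genes listed for arginine and ornithine supply, Oat was by far the highest. Oat, the mitochondrial enzyme that interconverts ornithine and glutamate semialdehyde, was at 62.0 TPM on average, while the arginases were near or at the detection limit. Arg1 had 0 and 4 counts and Arg2 had 0 in both libraries. Asl and Ass1, the urea cycle enzymes that remake arginine, were at 4.36 and 1.18 TPM. In this list 3 of 8 genes reached 1 TPM in both libraries.

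The methionine cycle, which makes the S-adenosylmethionine that Amd1 uses, was more broadly present, with 8 of 9 genes at 1 TPM or more in both libraries. Mat2a, the S-adenosylmethionine synthase of tissues other than liver, was at 54.3 TPM in replicate 1 and 60.8 TPM in replicate 2. Its 3001 and 3555 counts gave a log2 ratio of 0.30 (0.23 to 0.37), so it lay past 1.2-fold, as Odc1 and Azin1 did. Mat2b, its regulatory subunit, was at 28.8 ± 3.16 TPM, and Adi1, which acts in the salvage of the methylthioadenosine that Srm and Sms release, at 47.8 ± 2.56 TPM (SD, n = 2). Mat1a, the synthase known from liver, had 0 counts.

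Among 12 transport genes, 6 were at 1 TPM or more in both libraries. Atp13a3, a P-type ATPase of polyamine transport, was highest in RSEM at 15.5 ± 1.14 TPM, followed by Slc3a2, the heavy chain of several amino acid transporters, at 11.9 ± 1.80 TPM (SD, n = 2). The order was the reverse in the kallisto-layout table, with Slc3a2 at 19.2 and 17.2 TPM and Atp13a3 at 12.1 and 10.5 TPM. Slc7a2, which carries arginine and ornithine, was at 10.5 and 11.5 TPM. Its 1593 and 1945 counts gave a log2 ratio of 0.34 (0.24 to 0.44), the second of the pathway genes past 1.2-fold. In deposited TPM the log2 ratio was 0.16 for Mat2a and 0.13 for Slc7a2, against the median of -0.13.

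Spermidine is also the substrate for hypusine, a modified residue of the translation factor Eif5a. Eif5a itself was at 193 ± 5.43 TPM (SD, n = 2), higher than 7 of the 9 polyamine genes. The enzymes that make hypusine, Dhps and Dohh, were at 15.5 ± 1.40 and 19.5 ± 1.90 TPM (SD, n = 2). None of these 3 genes reached 1.2-fold between the libraries.

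Of the transcription factors known to act on polyamine genes, the glucocorticoid receptor Nr3c1 was at 31.2 ± 2.95 TPM and Max at 13.1 ± 2.72 TPM (SD, n = 2). Neither reached 1.2-fold. Myc, a known activator of Odc1, had a mean count of 89, below the minimum of 100, and is named after its values were seen. Replicate 1 had 56 Myc counts and replicate 2 had 122, for a log2 ratio of 1.17 (0.71 to 1.66). The shares over all genes given above do not cover genes below that minimum. With 1 library on each side, a link between Myc and Odc1 was not tested.

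**Figure D5:**
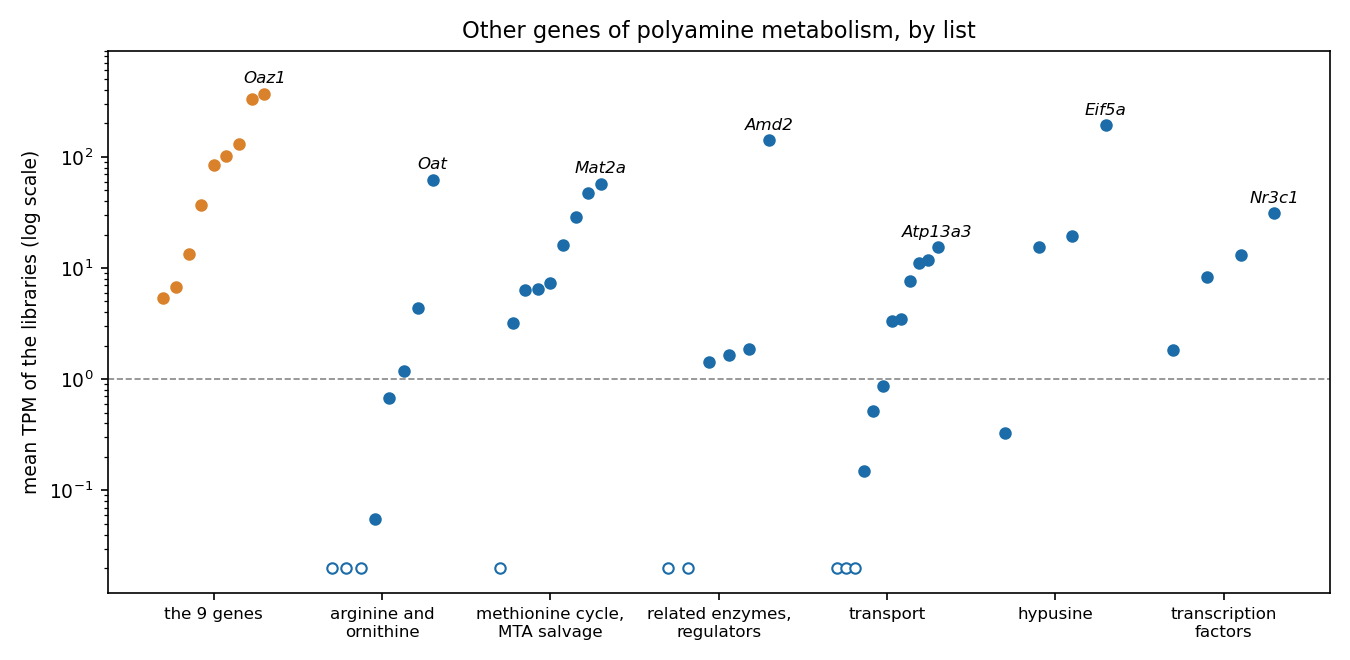
Mean TPM of the libraries (log axis) for the 9 polyamine genes (orange) and the 43 other genes by list (blue), with the top gene of each list named and a dashed line at 1 TPM. Open circles are the 9 genes under 0.02 TPM, drawn at that level. Each list other than the transcription factors has 1 or more genes below the line, while all 9 polyamine genes lie above it.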

How the data were processed

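Total RNA from 2 gastrocnemius libraries was analysed from 3 deposited tables per library, on mm10 with GENCODE M21. Per the labels' protocols, 300 ng of column-purified RNA with ERCC spike-ins entered a directional library kit with ribosomal RNA reduced. For genes and transcripts the authors deposited RSEM expected counts, their TPM, and as a score of uncertainty the posterior SD in counts. A second transcript table, laid out as kallisto output, holds deposited estimated counts and TPM, which were summed per gene; 86 genes without an entry there were taken as 0. Transcript lengths are those in the file headers. For the aligner and program versions, the sources used here give nothing.

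Levels are deposited TPM as mean ± SD (n = 2), with no test. Expected counts were rounded to whole numbers for the ratio between libraries, which used a prior of 0.5 counts and TMM factors (edgeR 4.0.16) from the 14370 genes whose mean count reached 10. Genes whose mean count reached 100 were counted past 1.2-fold or 1.5-fold. ERCC and phiX rows, 0.527% and 0.474% of counts, were left out. Reads are not independent molecules, so intervals and limits for 0 counts cover counting error only. Sequences and exons came from the M21 transcripts and annotation; copies were found with BLAST 2.17.0 and aligned with Biopython 1.88. The alternatives tried were library totals, DESeq2 1.42.0 size factors, spike-in totals, log2 TPM with a pseudocount of 0.1, a prior of 5, other count and TPM minimums, posterior mean TPM, TPM over nuclear protein-coding genes, the kallisto-layout table and each library alone. The software was Python 3.11.15 with scipy 1.17.1, pandas 2.3.3, numpy 2.4.6 and matplotlib 3.10.9, and R 4.3.3. The scaling and ratios were tested on simulated data.

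The genes and lists were chosen with earlier results of these data known. Named are all 9 genes, the 3 genes of highest mean TPM per list and any past 1.2-fold, the protein-coding genes next to the highest and lowest of the 9, and transcripts with at least 10% of a gene's TPM in either table. Other names were added after their values were seen, and 1 gene that the rule names is not reported here.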

Additional observations from a re-analysis of the deposited data

How the results depend on the processing

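No paired analysis was possible because the series holds 1 group. The summed level of the 9 genes was 1076 TPM, 990 TPM in the kallisto-layout table, 2403 TPM when TPM was rescaled to nuclear protein-coding genes and 1053 to 1100 TPM in single libraries. With the Amd, Oaz and Sms copies added to their parents it was 1427 TPM in RSEM and 1496 TPM in the kallisto-layout table, and with Gm7993 also added to Odc1 1436 and 1505 TPM, both settings chosen after seeing the data. The Amd1 share of 30.5% was 31.8% in the kallisto-layout table, 44.1% and 39.7% with copies added in the 2 tables, 43.8% and 39.5% with Gm7993 too, and 30.3% to 30.7% in single libraries. The antizyme to Odc1 ratio of 5.66 was 3.46 in the kallisto-layout table and 5.10 to 6.21 in single libraries. The share of all genes past 1.2-fold was taken for TMM scaling only, so the counts that follow have none beside them. The 2 polyamine genes past 1.2-fold became 0 with library totals and 3 with spike-in totals. With deposited TPM 2 lay past it, Azin1 and Sat1, and Odc1 did not. The count of other pathway genes past 1.2-fold, 2 with TMM, was 1 with library totals, 5 with spike-in totals and 5 with deposited TPM. The 5 with deposited TPM did not include Mat2a or Slc7a2. They were Asl, Apip, Slc3a2 and Max, lower in replicate 2, and Slc7a1, higher. These TPM ratios are to be read against the median of -0.13 over all tested genes. The cause of these shifts was not tested, apart from the larger sums that adding copies and rescaling bring by construction. The count of pathway genes at 1 TPM, 28, was the same in the kallisto-layout table and in each library alone. It was 30 with a minimum of 0.5 TPM and 23 with a minimum of 2 TPM. Sat1 and Srm, at 171 to 212 counts, had the widest counting intervals, and with 2 libraries of 1 group no difference between libraries can be assigned to a condition.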
